A study of Mus musculus with 20 samples.

Results

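The endothelium of the developing mouse gonad and mesonephros was described from the 1540 cells that the deposited annotation names endothelium, of 94705 cells in all. They carry 1 cell type label of the authors, and 484 of them are XX and 1056 XY. Embryos came from CD-1 outbred females mated with heterozygous Tg(Nr5a1-GFP) males, and the transgene marked the genital ridges for dissection. Urogenital ridges, gonad and mesonephros together, were taken at E10.5 and E11.5. Testes or ovaries were taken from E12.5 on (E12.5, E13.5, E16.5), so that stage and dissection change together between E11.5 and E12.5. Each sex and stage had 2 libraries from independent biological replicates (20 libraries), here numbered by the order of their dates. By their dates, XX libraries pair with XY libraries in both replicates through E12.5 and in replicate 2 of E16.5. None pair at E13.5, where sex and date cannot be told apart. No date is shared between stages, so that stage and date cannot be told apart in any comparison of stages.

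Endothelial cells line blood and lymphatic vessels. Vascular endothelial growth factor acts on them through the receptor Kdr, Notch signaling helps to set arterial identity, Nr2f2 venous identity, and Prox1 lymphatic identity. In the fetal testis, endothelial cells that arrive from the mesonephros form a large artery under the coelomic surface, the coelomic vessel, and the branches between the testis cords. The fetal ovary has no such vessel and is vascularized by a network that remodels around the ovigerous cords.

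The 20 libraries held 18 to 350 endothelial cells each, or 172 cells from E10.5, 208 from E11.5, 599 from E12.5, 446 from E13.5 and 115 from E16.5. Their summed unique molecular identifiers (UMIs) ran from 335446 to 9126485 per library, and levels are given as CPM, the UMIs of a gene per 1000000 of these UMIs after TMM scaling between libraries, done separately for endothelial and for other cells. Before this scaling a single UMI was worth 2.98 CPM in the shallowest library, E16.5 XX replicate 2, and 0.110 CPM in the deepest, E12.5 XY replicate 2. Barcodes of endothelial cells found in more than 1 library numbered 3 of 1537. The adhesion molecule Pecam1 stood at 119.5 to 458.9 CPM in endothelial cells and 1.7 to 48.8 in all other cells of the same libraries, the junction protein Cdh5 at 183.7 to 842.8 against 0.3 to 25.2, Kdr at 292.5 to 588.6 against 4.8 to 18.7, and the angiopoietin receptor Tek at 50.8 to 136.0 against 0.1 to 3.9. All 4 defining markers of the label were thus far higher in these cells than elsewhere, which is a description and not a test, since the cells were clustered on such genes. The sex of the libraries held as labelled, with Xist at 713.8 to 1853.6 CPM in XX and at most 1.6 in XY endothelium, and Ddx3y at 38.0 to 96.0 in XY and at most 0.8 in XX.

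Markers of other cells were also found in the endothelial sums. Globin transcripts took 1.34% of endothelial UMIs in E12.5 XX replicate 2, 1.66% in E12.5 XY replicate 1 and 3.70% in E13.5 XX replicate 2, and under 1% in each of the other 17 libraries. The pan-leukocyte gene Ptprc was at 0 in 19 libraries, and the immune list summed to at most 9.0 CPM. From E12.5 on, 8 Sertoli markers summed to 5.3 to 14.1 CPM in XX and 57.4 to 168.1 in XY endothelium, where the other XY cells held 639.5 to 1383.2. The 5 Leydig markers stood at 0 to 6.0 in XX and 1.6 to 119.6 in XY, and the 7 perivascular markers at 6.0 to 19.4 in XX and 15.8 to 150.9 in XY. The 6 pregranulosa markers summed to 56.99 to 131.4 CPM in XX and 23.4 to 60.1 in XY endothelium, where the other XX cells held 285.8 to 695.1. Of them Irx3 was called higher in XX over the stages. Bmp2 of this list is also named below among endothelial genes. At E11.5 it averaged 43.8 CPM in endothelium, against 19.4 in other cells of E10.5 and E11.5. The sum of this list thus cannot be read as transcripts of other cells alone. The values of all these markers moved with sex and stage, and their part in the differences given here was not tested.

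**Figure D1:**
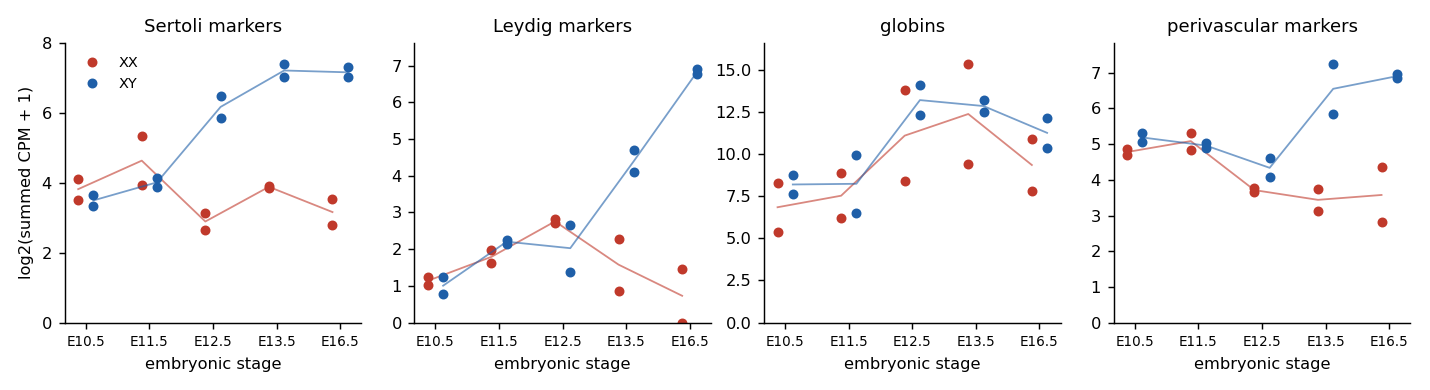
Summed levels of Sertoli, Leydig and perivascular markers and of globins in endothelial cells, as log2(summed CPM + 1) by embryonic stage, with 1 point per library (XX red, XY blue) and lines through the means of each sex. Sertoli and Leydig markers separate XY from XX endothelium at E16.5, while globins follow single libraries, with the highest sum in E13.5 XX replicate 2.

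The sequence around the start of 4 genes named below is shown: 2 arterial connexins, and 2 genes called higher in XX endothelium over E12.5 to E16.5. They are the RefSeq promoters (250 bases before to 50 after the start, GRCm38.p6, 5′ to 3′ on the strand of the gene) of the connexin genes Gja5 (chr3:97032152-97032451, plus strand) and Gja4 (chr4:127313990-127314289, minus strand), and of Hapln1 (chr13:89540386-89540685, plus strand) and Fam167b (chr4:129578531-129578830, minus strand). Capitals mark matches to AGGAAG or CGGAAG (bound by ETS factors), TGGGAA (RBPJ of the Notch pathway) or AACAAT (SOX factors) on either strand.
Gja5: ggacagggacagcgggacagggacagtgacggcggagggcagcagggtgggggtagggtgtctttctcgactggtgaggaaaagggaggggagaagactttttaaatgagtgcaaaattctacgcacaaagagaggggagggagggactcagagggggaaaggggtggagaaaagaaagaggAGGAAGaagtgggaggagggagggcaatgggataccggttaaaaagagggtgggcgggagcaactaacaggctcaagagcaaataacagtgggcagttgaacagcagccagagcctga
Gja4: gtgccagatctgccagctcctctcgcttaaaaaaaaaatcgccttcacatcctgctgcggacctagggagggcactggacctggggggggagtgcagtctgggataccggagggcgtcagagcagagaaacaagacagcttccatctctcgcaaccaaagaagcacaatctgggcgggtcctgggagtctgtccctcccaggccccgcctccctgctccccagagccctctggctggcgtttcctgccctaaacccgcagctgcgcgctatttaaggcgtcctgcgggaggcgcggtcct
Hapln1: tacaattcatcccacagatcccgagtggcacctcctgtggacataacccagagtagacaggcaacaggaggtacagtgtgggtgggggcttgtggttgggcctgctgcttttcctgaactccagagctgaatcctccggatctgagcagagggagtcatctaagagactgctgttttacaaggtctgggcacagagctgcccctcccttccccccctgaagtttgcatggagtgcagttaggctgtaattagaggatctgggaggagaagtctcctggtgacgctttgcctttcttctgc
Fam167b: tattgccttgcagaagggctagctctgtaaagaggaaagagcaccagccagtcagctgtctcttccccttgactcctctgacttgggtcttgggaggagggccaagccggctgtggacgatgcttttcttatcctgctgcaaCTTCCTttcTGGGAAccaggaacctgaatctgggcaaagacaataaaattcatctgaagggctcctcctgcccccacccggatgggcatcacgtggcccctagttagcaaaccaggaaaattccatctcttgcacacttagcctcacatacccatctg

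Gja5 holds 1 AGGAAG and Fam167b 1 AGGAAG, read on the other strand, and 1 TGGGAA. Gja4 and Hapln1 hold none of these letters in this window. Of all 32851 such promoters 35.4% hold AGGAAG, 16.9% CGGAAG, 25.6% TGGGAA and 10.7% AACAAT, so that these matches are common and describe the sequence only.

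The share of endothelial cells was highest at E12.5. It was 1.09% and 0.460% in the XX and 1.38% and 1.67% in the XY libraries of E10.5, and at E11.5 it was 1.23% and 1.10% against 1.39% and 1.19%. At E12.5 the values were 2.20% and 1.56% against 2.28% and 4.62%, at E13.5 1.46% and 1.07% against 2.04% and 2.15%, and for E16.5 0.976% and 0.413% against 0.895% and 0.625%. The groups of the sexes did not overlap at E10.5, E12.5 and E13.5, with XY higher, and overlapped at E11.5 and E16.5. From E12.5 to E16.5 the mean was 1.28% in XX and 2.102% in XY, a difference of 0.822 percentage points (two-sided exact permutation of sex within stage, p = 0.0463, adjusted over 5 such tests 0.116). Without E12.5 XY replicate 2, which held 350 of the 1540 cells, the difference was 0.432 points (exact permutation p = 0.0926). With erythrocytes and germ cells left out of the total it was 0.830 points (exact permutation p = 0.148). At E16.5 the mean was then 0.998% in XX and 0.843% in XY. At E10.5 and E11.5 the mean difference was 0.438 points (0.970% against 1.41%, exact permutation p = 0.111, adjusted 0.139). Between E12.5 and E16.5 the share went from 2.66% to 0.727% over 4 libraries each, in all 4 of E16.5 below all 4 of E12.5, and the exact permutation p of 0.0286 is the smallest this design can give (adjusted 0.116). A share falls as well when other cells become more numerous, and the 2 cannot be told apart here.

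**Figure D2:**
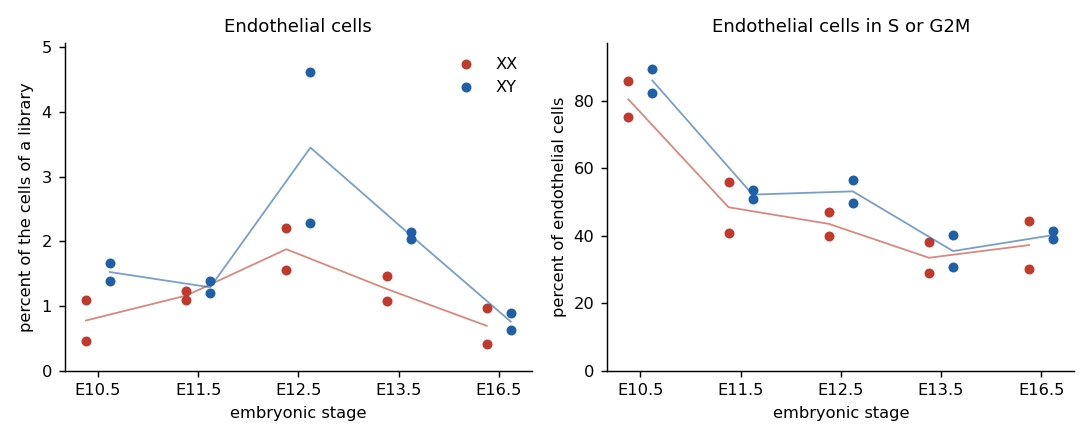
Left, percent of the cells of a library that are endothelial. Right, percent of its endothelial cells called in S or G2M phase. Points are libraries (XX red, XY blue) by embryonic stage and lines join the means of each sex; the share of endothelial cells peaks at E12.5 with 4.62% in 1 XY library, and the cycling share drops between E10.5 and E11.5.

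Cycling cells were most common at E10.5. By the phase calls of the authors, 75.0% to 89.5% of endothelial cells were in S or G2M at E10.5. The ranges were 40.8% to 56.0% for E11.5, 40.0% to 56.5% for E12.5, 28.8% to 40.2% for E13.5 and 30.0% to 44.4% for E16.5. The 4 libraries of E10.5 lay above all 16 later ones. Phase calls read depth and free RNA. After each cell was thinned to 5000 UMIs, 81.0% to 89.5% of endothelial cells at E10.5 and 50.0% to 55.1% at E11.5 kept a UMI of at least 2 G2/M genes. Between E12.5 and E16.5 the share in S or G2M differed by -9.61 points (48.3% against 38.7%, exact permutation p = 0.0857, adjusted 0.139), and the share with at least 2 G2/M genes after thinning was 53.9% against 34.6% (exact permutation p = 0.0571). Between XX and XY from E12.5 on, the share in S or G2M was 38.1% against 42.9%, a difference of 4.85 points (exact permutation p = 0.213, also after adjustment). The share with at least 2 G2/M genes after thinning was higher in XY by 9.92 points (exact permutation p = 0.0278), and the share in S or G2M without the cells in the highest 5% of doublet score by 9.18 (exact permutation p = 0.037), both unadjusted. The second leaves out all 18 cells of E16.5 XX replicate 2, of which 44.4% were in S or G2M, so that XX at E16.5 rests on 1 library at 26.3%.

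Between E10.5 and E11.5, in the mean of both sexes, the endothelium of the ridge lost transcripts of the lymphatic regulator Prox1, of the hyaluronan receptor Lyve1 and of mitotic genes, and gained those of Cav1 and Cavin1, of 7 of 13 basement membrane genes, of 5 of 10 genes of capillary function and of 3 of 15 arterial genes. Tested by edgeR quasi-likelihood on the sums per library with Benjamini-Hochberg adjustment over 11112 genes, 660 genes (5.94%) passed, with 356 higher and 304 lower at E11.5. Leaving out a single library moved the number to between 205 (without E11.5 XX replicate 1) and 471. Of 37 genes that passed here and were followed with single libraries left out, 14 kept the call whichever single library was left out: Prox1, Cav1, Cavin1, Efnb2, Hes1, Epas1, Rgcc, Tie1, Plk1, Fam167b, Tinagl1, Bmp2, Cyp1a1 and Sncg.

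The gene lists here and below were chosen with earlier results of these data known, so their counts are a description. Of the lymphatic list, 2 of 5 genes tested fell and none rose (median log2 change -0.43, all genes 0.03). Prox1, the transcription factor that sets lymphatic fate (GRCm38 chr1:190118035-190170714), was at 90.3 and 63.2 CPM in the XX and 26.1 and 51.1 in the XY libraries of E10.5, and at 17.8, 7.3, 11.8 and 16.46 at E11.5. The groups did not overlap in either sex, and the log2 change was -1.99 (SE 0.34, adjusted p = 0.0033). It stayed at 12.1 CPM or below in every library of the gonads from E12.5 on. Lyve1, found on lymphatic, venous and sinusoidal endothelium and on some macrophages (chr7:110850607-110863239), was at 126.0, 39.8, 43.0 and 16.45 CPM at E10.5 and at 16.46, 5.9, 9.3 and 15.2 at E11.5, a log2 change of -2.00 (SE 0.51, adjusted p = 0.0294). Its call was lost when any of 6 libraries was left out, and without E10.5 XX replicate 1, the highest, among them. The receptor Flt4 did not pass (-0.43, SE 0.14, adjusted p = 0.0793).

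In single cells of E10.5, Lyve1 and Prox1 tended to be found together in XX but less clearly in XY. In XX, 20 of 29 cells with a Prox1 UMI had a Lyve1 UMI (69.0%), against 1 of 20 without Prox1 (5.0%), at median depths of 33964 and 34751.5 UMIs. In XY these were 17 of 53 (32.1%) and 15 of 70 (21.4%). Among mesonephric mesenchyme of E10.5, 8.88% of cells held a Prox1 UMI and 0.564% a Lyve1 UMI at a median of 23936 UMIs, against 47.7% and 30.8% of the endothelial cells at 34891.5. At 5000 UMIs per cell the shares were 19.3% and 2.25% for Prox1, and 13.0% and 0.114% for Lyve1. Cells of 1 library are not replicates, so no test was made.

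Cav1, the main membrane protein of caveolae, went from 26.2, 5.5, 13.4 and 17.1 CPM to 129.6, 54.1, 95.2 and 85.4 (log2 change 2.51, SE 0.29, adjusted p = 0.000171). Its partner Cavin1 rose by 2.33 (SE 0.36, adjusted p = 0.00178) and went from at most 15.5 to at least 21.5 CPM. With Cavin2, 3 of 8 genes of barrier and fenestration rose and none fell. Of the basement membrane list 7 of 13 rose and none fell (median 0.71), among them the type IV collagen chains Col4a1 (0.81, SE 0.22, adjusted p = 0.0368) and Col4a2 (0.75, SE 0.19, adjusted p = 0.0276). Col4a1 and Col4a2 each lost the call without any of 6 single libraries.

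Of 15 arterial genes 3 rose and none fell (median 1.04). The ephrin Efnb2 was at 15.7, 19.2, 24.0 and 26.4 CPM and then at 69.9, 64.4, 57.4 and 45.6 (1.49, SE 0.22, adjusted p = 0.00135). Hey1, a target of Notch, rose by 2.13 (SE 0.46, adjusted p = 0.0114), and Gja4, the gap junction protein connexin 37, from at most 9.6 to at least 16.1 CPM (2.72, SE 0.67, adjusted p = 0.0234). The related connexin 40 gene Gja5 was at 0 in all 4 libraries of E10.5 and in both XX libraries of E11.5, and at 17.7 and 4.4 CPM in the XY ones. It did not pass between these stages, in a fit that gave no standard error. Of 14 Notch pathway genes, Hes1 and Hey1 rose, Hes1 from 96.6 to 153.9 CPM in the 4 libraries to 358.9 to 493.8. Of the endothelial transcription factors 3 of 25 rose, of which Epas1, a factor of the oxygen response, changed most (2.09, SE 0.27, adjusted p = 0.000384).

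Of 10 genes of capillary function and fatty acid transport 5 rose and none fell (median 1.02). They were the fatty acid receptor Cd36, the binding protein Fabp4, the water channel Aqp1, the regulator Rgcc and Gpihbp1, which anchors lipoprotein lipase and was at 0 in both XX libraries and 12.7 and 6.5 in the XY libraries of E10.5, and at 19.9, 10.2, 13.2 and 11.4 CPM at E11.5 (adjusted p = 0.00759). Of the 5, Rgcc alone kept its call whichever single library was left out. Aqp1 and Fabp4 each lost it without any of 7, Cd36 without any of 6 and Gpihbp1 without either of 2. Of the endothelial markers themselves 6 of 22 rose, such as Cdh5 (0.60, SE 0.15, adjusted p = 0.025), Pecam1 (0.75, SE 0.20, adjusted p = 0.0327) and the receptor Tie1 (1.02, SE 0.17, adjusted p = 0.00281). None fell. Cdh5 lost its call without any of 7 single libraries and Pecam1 without any of 5.

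In the other direction, 7 of 13 G2/M genes fell (median -0.69) with 2 of 14 S-phase genes and 2 of 12 glycolysis genes, Eno1 and Ldha. The mitotic kinase Plk1 fell from 82.6 to 97.6 CPM in the 4 libraries to 33.6 to 43.9 (-1.23, SE 0.23, adjusted p = 0.00532). Asf1b, a histone chaperone, fell by 1.16 on the log2 scale (SE 0.23, adjusted p = 0.00714). Of 25 Hox genes 2 fell, Hoxb5 (-1.75, SE 0.32, adjusted p = 0.00626) and Hoxa5 (-1.04, SE 0.22, adjusted p = 0.00981).

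The largest rises by the rule for named genes were Fam167b, Tinagl1, Bmp2, Gja4, Cyp1a1, Cav1, Caprin2 and Hspa1b. Fam167b (chr4:129576815-129578549) was at 0 in both XX and at 15.5 and 5.5 CPM in the XY libraries of E10.5, and at 16.1 to 35.7 at E11.5 (adjusted p = 0.00178). Tinagl1, a matrix protein, went from 4.1 to 8.5 CPM to 29.3 to 49.1 (2.95, SE 0.26, adjusted p = 5.82e-06). Bmp2, a secreted ligand, rose by 2.76 (SE 0.47, adjusted p = 0.00307) and Cyp1a1, a monooxygenase of foreign compounds, by 2.65 (SE 0.42, adjusted p = 0.00223). Cyp1a1 was at 12.8 to 64.4 CPM at E11.5, at most 6.5 at E10.5 and at most 19.2 later, so that E11.5 overlapped later stages. Hspa1b has a near-identical copy, Hspa1a, so its value is uncertain. The calls of Caprin2 and of Gja4 were lost without any of 7 and of 5 single libraries, E10.5 XX replicate 1 among them in both. Beside Lyve1, Prox1, Hoxb5, Plk1 and Asf1b, the largest falls were the potassium channel subunit Kcne3 (-1.72, SE 0.46, adjusted p = 0.0348), the synuclein Sncg (-1.29, SE 0.20, adjusted p = 0.00178) and the membrane protease Hpn (-1.27, SE 0.29, adjusted p = 0.0182).

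**Figure D3:**
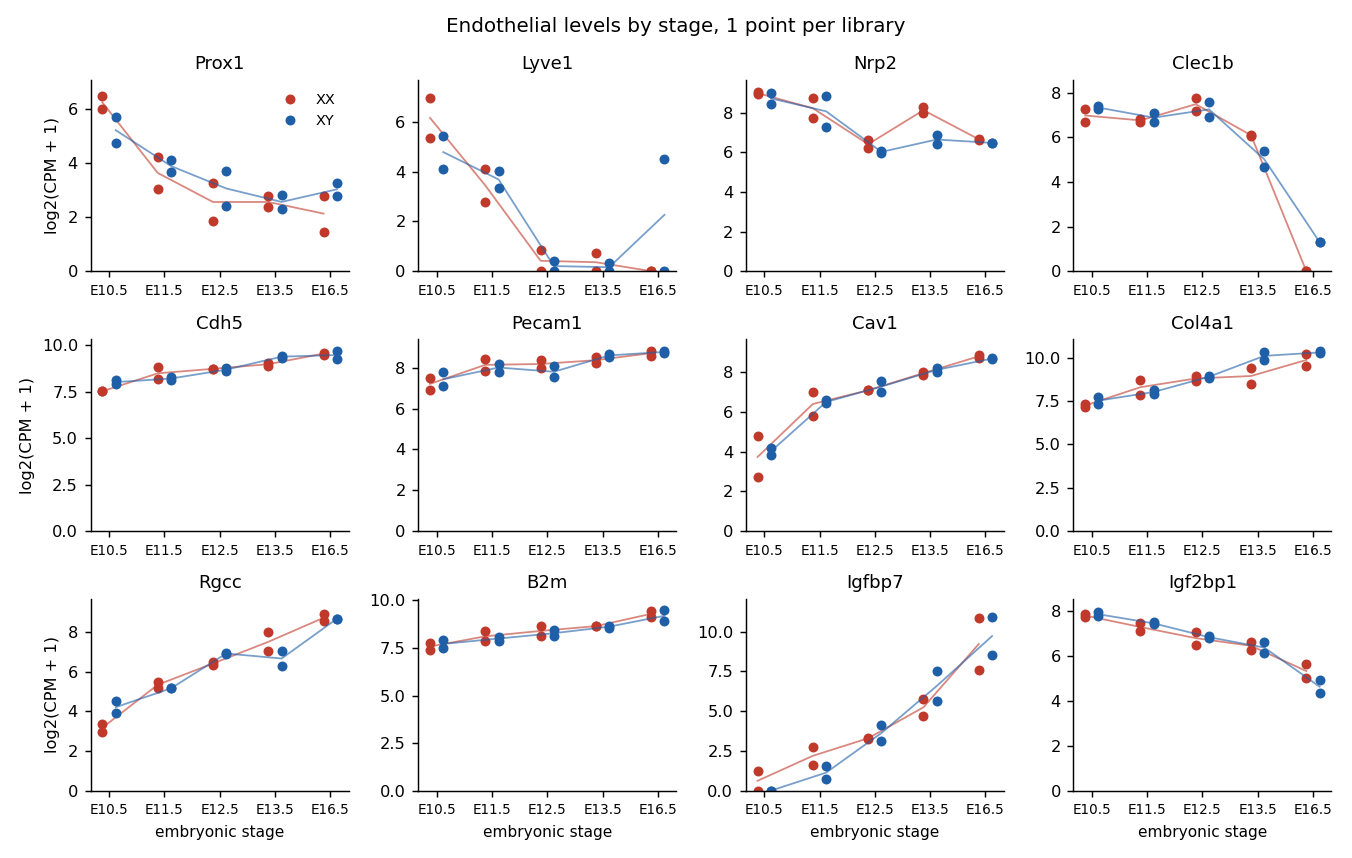
Levels of 12 genes in endothelial cells as log2(CPM + 1) by embryonic stage, with 1 point per library (XX red, XY blue) and lines through the means of each sex. Prox1 and Lyve1 fall after E10.5 and Clec1b after E12.5, Cav1, Rgcc and Igfbp7 climb, and the libraries of E16.5 split into a higher and a lower pair for Igfbp7.

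From E12.5 to E16.5, within gonads dissected alike, the endothelium held less of Clec1b, Esm1 and fetal growth genes, and more of genes of the MHC class I and Ly6 list, of capillary function and of the basement membrane. Of 11112 genes 1283 passed, 722 higher (6.5%) and 561 lower (5.05%) at E16.5. Without E16.5 XX replicate 1 there were 569. Of 52 genes that passed and were followed in the same way, 34 kept the call whichever single library was left out, and those that lost it were Apln, Cavin1, Cxcl12, Fbln5, Gm28578, Gm38299, Hes1, Hey1, Hoxb5, Igf2, Kcne3, Klf2, Ly6c1, Notch4, Pdgfb, Pecam1, Plk1 and Tek. The step from E12.5 to E13.5 gave 449 (4.04%) and that from E13.5 to E16.5 gave 747 (6.72%). E16.5 rests on 115 cells, of which 38 are XX.

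Clec1b, the receptor CLEC-2 known best from platelets and their binding of podoplanin (chr6:129397297-129409335), was nearly lost. It was at 100.6 to 218.3 CPM in all 12 libraries from E10.5 to E12.5, at 66.0 and 68.0 in the XX against 24.2 and 40.1 in the XY libraries of E13.5, and at 0, 0, 1.5 and 1.5 at E16.5 (adjusted p = 7.09e-08). The other cells held at most 1.2 CPM. The libraries of E12.5 and E16.5 were far apart in both sexes, and the fitted fold is not given since E16.5 held 1 UMI in each XY library and none in XX. 8430408G22Rik went from 17.3 to 48.1 CPM at E12.5 to 0 in all 4 libraries of E16.5 (adjusted p = 0.00038), and Btnl9, a butyrophilin-like protein, from 15.1 to 35.7 to 0, 0, 1.5 and 0 (adjusted p = 0.000226). In 4 libraries of E16.5 a count of 0 allows up to 4.33 to 8.94 CPM before scaling (3 counts).

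Esm1, a proteoglycan of sprouting tip cells (chr13:113209659-113218098), was at 0 in all 8 libraries of E10.5 and E11.5. It stood at 59.8 and 48.8 in XX and 47.4 and 66.7 CPM in XY at E12.5, at 25.9, 51.4, 83.7 and 64.5 at E13.5, and at 0 and 0 in XX against 22.2 and 24.8 in XY at E16.5 (adjusted p of E16.5 against E12.5 0.000212). At E16.5 it was thus found in XY and not detectable in XX at this depth. Of the other tip cell genes, Kcne3 went from 36.5 and 69.2 to 0 and 0 CPM in XX, which holds 38 cells at E16.5, and from 21.7 and 26.3 to 26.6 and 64.2 in XY, so that its call (adjusted p = 0.0314) comes with a fall in XX and none in XY. In the same list, Apln, the ligand of Aplnr, rose by 2.31 (SE 0.39, adjusted p = 0.000931) and Pdgfb, which recruits pericytes, by 1.01 (SE 0.23, adjusted p = 0.00915). Of 9 genes of the list 2 rose and 2 fell. Rsad2, the antiviral protein viperin, fell by 4.54 on the log2 scale (SE 0.75, adjusted p = 0.000789), from 86.2, 97.6, 32.2 and 29.8 CPM to at most 4.4. The predicted genes Gm28578 and Gm38299 also fell (adjusted p = 0.0428 and 0.0114), with libraries of E12.5 from 7.0 to 72.4 and from 8.3 to 68.4 CPM.

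Of 15 imprinted and fetal growth genes 8 fell and none rose (median -0.79, all genes -0.02). Hmga2, a chromatin protein of growing tissue, was at 427.2, 324.1, 447.1 and 376.3 CPM at E12.5, at 175.9 to 356.4 at E13.5 and at 82.7, 51.0, 50.3 and 45.2 at E16.5 (-2.78, SE 0.23, adjusted p = 1.03e-06). The RNA-binding protein Igf2bp1 fell by 1.88 on the log2 scale (SE 0.21, adjusted p = 2.16e-05), the noncoding H19 by 1.50 (SE 0.22, adjusted p = 0.000299) and the growth factor Igf2 by 1.28 (SE 0.39, adjusted p = 0.0406). The step from E13.5 to E16.5 held 9 falls and 1 rise of this list, that from E12.5 to E13.5 a single rise, of the cell cycle inhibitor Cdkn1c (1.02, SE 0.27, adjusted p = 0.0434).

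Of 9 genes of MHC class I and the Ly6 family 7 rose and none fell (median 1.33). B2m, the light chain of MHC class I, rose from 277.4, 406.0, 278.2 and 342.1 to 564.8, 695.8, 477.4 and 711.5 CPM (0.91, SE 0.18, adjusted p = 0.00263), with no overlap in either sex. The interferon-induced membrane protein Ifitm3 rose by 1.99 (SE 0.22, adjusted p = 1.93e-05) and Bst2, which tethers viruses, by 1.31 (SE 0.20, adjusted p = 0.000471). Mndal and Ifi203, of the interferon-inducible p200 family, were at 1.0 to 6.3 and 2.1 to 10.2 CPM at E12.5 and at 40.5 to 84.6 and 33.4 to 81.7 at E16.5 (adjusted p = 5.52e-06 and 1.52e-05). Genes of that family are near copies of each other, which makes each single value uncertain. Rsad2, which interferon also induces, went the other way, as given above.

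Of 10 genes of capillary function 4 rose and 1 fell (median 1.03). Gpihbp1 went from 38.0, 65.3, 35.4 and 35.3 CPM to 255.1, 470.9, 273.4 and 272.7 (2.89, SE 0.24, adjusted p = 1.64e-06), and Rgcc from 80.9, 88.1, 117.4 and 122.9 to 476.8, 371.9, 403.5 and 409.7 (2.05, SE 0.21, adjusted p = 8.59e-06). The homeobox gene Meox2 rose by 2.45 (SE 0.39, adjusted p = 0.000672) and Aqp1 by 1.81 (SE 0.37, adjusted p = 0.00356), while the binding protein Fabp5 fell by 1.96 on the log2 scale (SE 0.36, adjusted p = 0.00171). Of the basement membrane list 8 of 13 rose (median 0.74), such as Col4a1 from 393.4 to 497.6 to 722.8 to 1308.1 CPM (1.26, SE 0.22, adjusted p = 0.00113). Cav1 went on to 410.9 to 473.9 CPM (1.55, SE 0.24, adjusted p = 0.000512). Of the endothelial markers 8 of 22 rose, among them the co-receptor Eng (1.34, SE 0.21, adjusted p = 0.000471), Cdh5 (0.81, SE 0.15, adjusted p = 0.0017) and Tek (0.76, SE 0.19, adjusted p = 0.015), and none fell.

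Of the arterial list 2 of 15 rose and 1 fell (median 0.05). Hey1 fell by 1.40 on the log2 scale (SE 0.37, adjusted p = 0.0181), while Cxcl12 rose by 2.18 (SE 0.46, adjusted p = 0.00523) and the elastic fiber protein Fbln5 by 4.25 (SE 0.60, adjusted p = 0.000231), both of them genes that other cells of the gonad held at up to 523.2 and 78.6 CPM. Of 14 Notch genes 4 rose and 1 fell. Nrarp, a feedback inhibitor of Notch, rose by 2.45 (SE 0.39, adjusted p = 0.000605).

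The 449 genes of the step from E12.5 to E13.5 held 6 of 13 G2/M genes that fell and none that rose (median -0.66, all genes 0.01), with Cdc20, an activator of the anaphase complex, at -1.10 (SE 0.19, adjusted p = 0.00843). Of 15 arterial genes 3 rose, such as Jag1 (1.56, SE 0.35, adjusted p = 0.025) and Efnb2 (0.67, SE 0.18, adjusted p = 0.0454), and of 7 venous genes 3 rose, among them Nrp2 (1.18, SE 0.27, adjusted p = 0.0278) and the ephrin receptor Ephb4 (0.69, SE 0.17, adjusted p = 0.0369). No arterial or venous gene passed as lower. Of 8 genes of this step followed with single libraries left out, 1 kept its call throughout, Cdc20. The count of the step was 33 without E13.5 XY replicate 2, 46 without E13.5 XX replicate 2, 23 without the libraries with over 1% globin UMIs and 2 without both E12.5 libraries of the earlier date. From E13.5 to E16.5 the venous regulator Nr2f2 fell by 0.76 on the log2 scale (SE 0.21, adjusted p = 0.0365) and the netrin receptor Unc5b by 2.03 (SE 0.33, adjusted p = 0.00152), while the junction gene Cldn5 rose by 0.71 (SE 0.17, adjusted p = 0.0212). Of 13 genes of this step followed in the same way, 6 kept the call throughout, Unc5b among them. Nr2f2 and Cldn5 each lost it without any of 6 single libraries.

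The 4 libraries of E16.5 were not alike. Igfbp7, a secreted binding protein of the vessel wall (chr5:77349240-77408041), was at 1868.5 and 1942.2 CPM in replicate 1 of XX and XY and at 192.0 and 367.4 in replicate 2, against 7.6 to 16.9 at E12.5 (6.82, SE 0.74, adjusted p = 1.93e-05). All 4 lay above all earlier libraries, of which the highest held 185.4. Klf2, a transcription factor that shear flow induces, was at 619.3 and 520.3 in replicate 1 but at 35.99 and 34.99 in replicate 2, within the 18.9 to 40.2 of E12.5 (3.47, SE 0.66, adjusted p = 0.00227), so that its rise rests on replicate 1. Against E13.5 its log2 change was 2.64 with all libraries (SE 0.62, adjusted p = 0.0175) and -0.47 without replicate 1 of both sexes. Nrarp (255.1 and 294.1 against 51.0 and 87.5), Ly6e (172.4 and 206.9 against 54.0 and 67.1) and Ly6c1 (86.2 and 152.2 against 27.0 and 33.5) split in the same way. Fos, an immediate early gene chosen after its values were seen, was at 914.9 and 883.9 in replicate 1, 491.9 and 514.7 in replicate 2 and at most 220.9 CPM at earlier stages. Without replicate 1 of both sexes 468 genes passed from E12.5 to E16.5, and 14 of the 16 genes named by size were still called. The XX and XY libraries of replicate 1 carry dates a few days apart, and those of replicate 2 share a date some months later. The split thus cannot be told apart from library date, and what sets the pairs apart was not tested.

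The remaining genes named by size from E12.5 to E16.5 rose, with all 4 libraries of E16.5 above those of E12.5. The rule for these genes asks for libraries apart in at least 1 sex. The amine oxidase Aoc3, an adhesion protein of vessels, was at 0, 0.8, 0.8 and 6.6 CPM at E12.5 and at 26.4, 45.0, 38.4 and 77.3 at E16.5 (adjusted p = 9.06e-05), lower in replicate 1 of each sex. The efflux transporter Abcb1a, known from the blood-brain barrier, rose from at most 3.4 to at least 29.6 CPM (4.30, SE 0.43, adjusted p = 1.18e-05). The protease Htra1 rose by 4.24 (SE 0.42, adjusted p = 1.88e-05), Olfml2a by 4.13 (SE 0.56, adjusted p = 0.000266) and Gm525 by 3.87 (SE 0.35, adjusted p = 2.05e-05). Htra1 was higher in the XY (124.2 and 145.8) than in the XX libraries of E16.5 (40.5 and 18.0 CPM). No gene passed a test of the change from E12.5 to E16.5 in XY against that in XX (0%, 0 of 11112, with 542 at an unadjusted p under 0.05 and 1 called by DESeq2). Without a filter on low counts 111 passed.

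**Figure D4:**
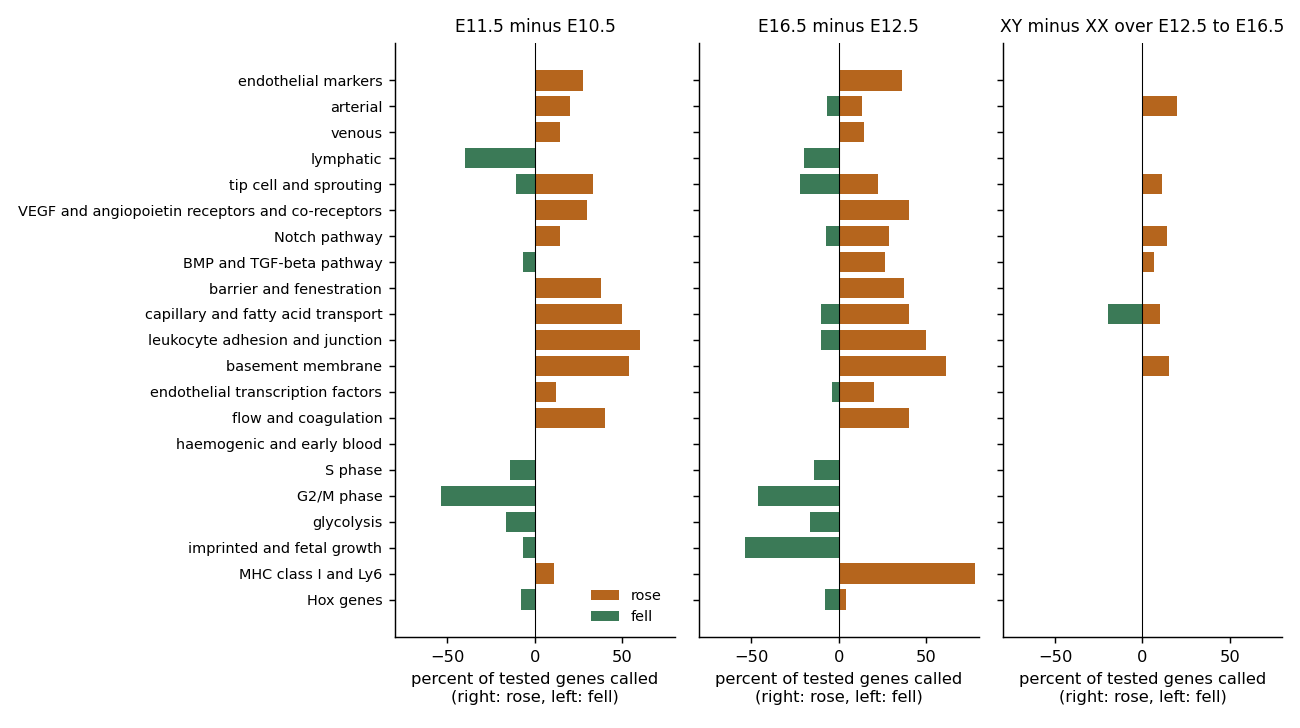
Percent of the tested genes of each list that passed the test, to the right those that rose and to the left those that fell, for E11.5 against E10.5, E16.5 against E12.5, and XY against XX over E12.5 to E16.5. Over all 11112 genes 660, 1283 and 153 passed in these comparisons. Of the MHC class I and Ly6 list 7 of 9 genes rose at E16.5. The lists were chosen with earlier results of these data known, so their counts are a description.

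Testis and ovary endothelium were compared from E12.5 to E16.5 as the mean of the differences within the 3 stages. XY endothelium held more of the arterial gene Gja5, of the Wnt antagonist Dkk2, of Esm1, and of Jag1 and Cxcl12, which other cell types held at higher levels, and XX endothelium more of Hapln1, Fam167b, Meis2, Apoe and Cd36. Of 11112 genes 153 passed (1.38%), with 108 higher in XY and 45 higher in XX. Of single stages, E12.5 gave 10 (0.09%), E13.5 gave 461 (4.15%) and E16.5 gave 9 (0.081%). At E10.5 and E11.5 there were 3 (0.027% each), the sex-linked genes Xist, Ddx3y and Eif2s3y. Of the 153 genes 108 were also called at E13.5 (70.6% of the 153 and 23.4% of the 461), 10 at E12.5 and 7 at E16.5. Each stage is a part of the pooled difference, so this overlap is a description.

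These counts depend on few libraries. Without the 4 libraries of E13.5, where date and sex coincide, 17 genes passed, and of the 16 genes named below by size only Meis2 and Xist did. With the shared dates as a replicate block, which leaves out the unpaired libraries of E13.5 and E16.5, 6 passed over the stages and 1 at E16.5, and of the 16 only Xist and Tpm3-rs7 were called. Without the 3 libraries with over 1% globin UMIs there were 59 over the stages and 81 at E13.5, and leaving out any single library gave 82 (without E12.5 XY replicate 2) to 153. Of 30 genes that passed over the stages and were followed in this way, 13 kept the call whichever single library was left out, of which the autosomal ones were Meis2, Dkk2, Cxcl12, Cd36, Tpm3-rs7, Irx3, Amh and Ptgds. At E13.5, where single libraries moved the count to between 79 and 359, 3 of 23 did, Dkk2, Hes1 and Npr3.

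Of the 108 genes higher in XY, 72 were lower in endothelium than in the other cells of the same libraries and 36 were under 20% of them. Among these were 6 of the 7 Sertoli markers tested, such as Amh, at 12.9, 7.4, 12.7, 8.9, 11.8 and 16.0 CPM in the 6 XY libraries and at most 0.8 in XX, and 2 of 3 Leydig markers. Of the 45 higher in XX, 29 were at least as high in endothelium as in other cells. At E12.5 the 10 genes were Ddx3y, Eif2s3y, Kdm5d, Uty, Xist, Tsix, the Sertoli genes Ptgds and Defb19, the pregranulosa gene Irx3 and Meis2, and those of E16.5 included Ddx3y, Eif2s3y, Xist, Tsix, Ptgds, Defb19, the Leydig gene Cyp11a1 and the elastin gene Eln. The genes named by size below were chosen by a rule that asks for at least as high a level in endothelium as in other cells. It also asks for libraries of the sexes that are apart in at least 1 stage.

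Gja5, connexin 40 of arteries (chr3:96904693-97077416), was at 4.1 and 0 CPM in XX and 0.8 and 71.1 in XY at E12.5, at 30.4 and 7.5 against 96.1 and 135.4 at E13.5, and at 0 and 0 against 31.0 and 32.1 at E16.5 (adjusted p = 0.0334). The sexes overlapped at E12.5, where the XY replicates differed by far, and not later. Its call was lost when any of 9 single libraries was left out, E12.5 XY replicate 2 among them, and with DESeq2. Gja4 showed the same order at E12.5 in XY (28.1 and 210.6 CPM) and was at 87.4 and 54.8 in XX against 250.0 and 196.7 in XY at E13.5. Over the stages it did not pass (0.94, SE 0.41, adjusted p = 0.358). At E16.5 it was at 59.8 and 30.0 against 60.6 and 26.2.

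Over the stages 3 of 15 arterial genes were higher in XY and none in XX (median 0.81, all genes 0.02). Beside Gja5 they were Jag1, a Notch ligand (1.58, SE 0.31, adjusted p = 0.0139), and the chemokine Cxcl12 (2.71, SE 0.34, adjusted p = 0.00026). Jag1 was at 6.0 and 1.6 CPM in XX and 4.8 and 9.3 in XY at E12.5, at 7.8 and 8.3 against 34.0 and 43.1 at E13.5, and at 7.0 and 9.0 against 16.3 and 32.1 at E16.5. It overlapped at E12.5 only, and was not called without E12.5 XY replicate 2, E16.5 XX replicate 1 or E16.5 XY replicate 2. At E13.5 the count was 5 of 15 (median 1.32), with Efnb2 (1.40, SE 0.26, adjusted p = 0.00513), Hey1 (1.93, SE 0.39, adjusted p = 0.0101) and Hey2 (3.36, SE 0.91, adjusted p = 0.0491) beside Jag1 and Cxcl12. Of the 19 annotated cell types, each summed over all libraries without scaling, perivascular cells held the most Jag1 and Hey2 (135.4 and 45.04 CPM, against 14.8 and 4.25 in endothelium), and late interstitial progenitors the most Cxcl12 (804.5 against 21.5). The perivascular marker Rgs5 was also higher in these XY libraries, and the part of other cells in these calls was not tested. Of 14 Notch genes 7 were higher in XY there and none in XX (median 1.05), among them the receptors Notch1 (1.11, SE 0.26, adjusted p = 0.0229) and Notch4 (1.55, SE 0.42, adjusted p = 0.0438) and the target Hes1 at 1584.8 and 2004.0 CPM against 358.5 and 450.6 (2.15, SE 0.32, adjusted p = 0.00134). Of the venous list 1 of 7 was higher in XX, the co-receptor Nrp2 (-1.48, SE 0.38, adjusted p = 0.0378), with a median of -1.01.

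Of 13 basement membrane genes 7 were higher in XY at E13.5, such as Col4a1 (1.11, SE 0.30, adjusted p = 0.0458), and 2 over the stages, Col15a1 (0.80, SE 0.19, adjusted p = 0.0396) and the fibronectin gene Fn1 (0.91, SE 0.18, adjusted p = 0.0156). In those libraries 4 of 5 perivascular markers were higher in XY too, with Rgs5 at 15.0 and 22.4 against 0.6 and 2.5 CPM. Pericytes also make basement membrane, and their part in this was not tested. Over the stages, Col15a1 lost its call without any of 8 single libraries and Fn1 without either of 2. Of 22 endothelial markers none differed over the stages (median -0.03), while at E13.5 Egfl7 (-0.90, SE 0.21, adjusted p = 0.0239), Emcn (-0.79, SE 0.22, adjusted p = 0.047) and Ramp2 (-0.75, SE 0.20, adjusted p = 0.0374) were higher in XX.

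**Figure D5:**
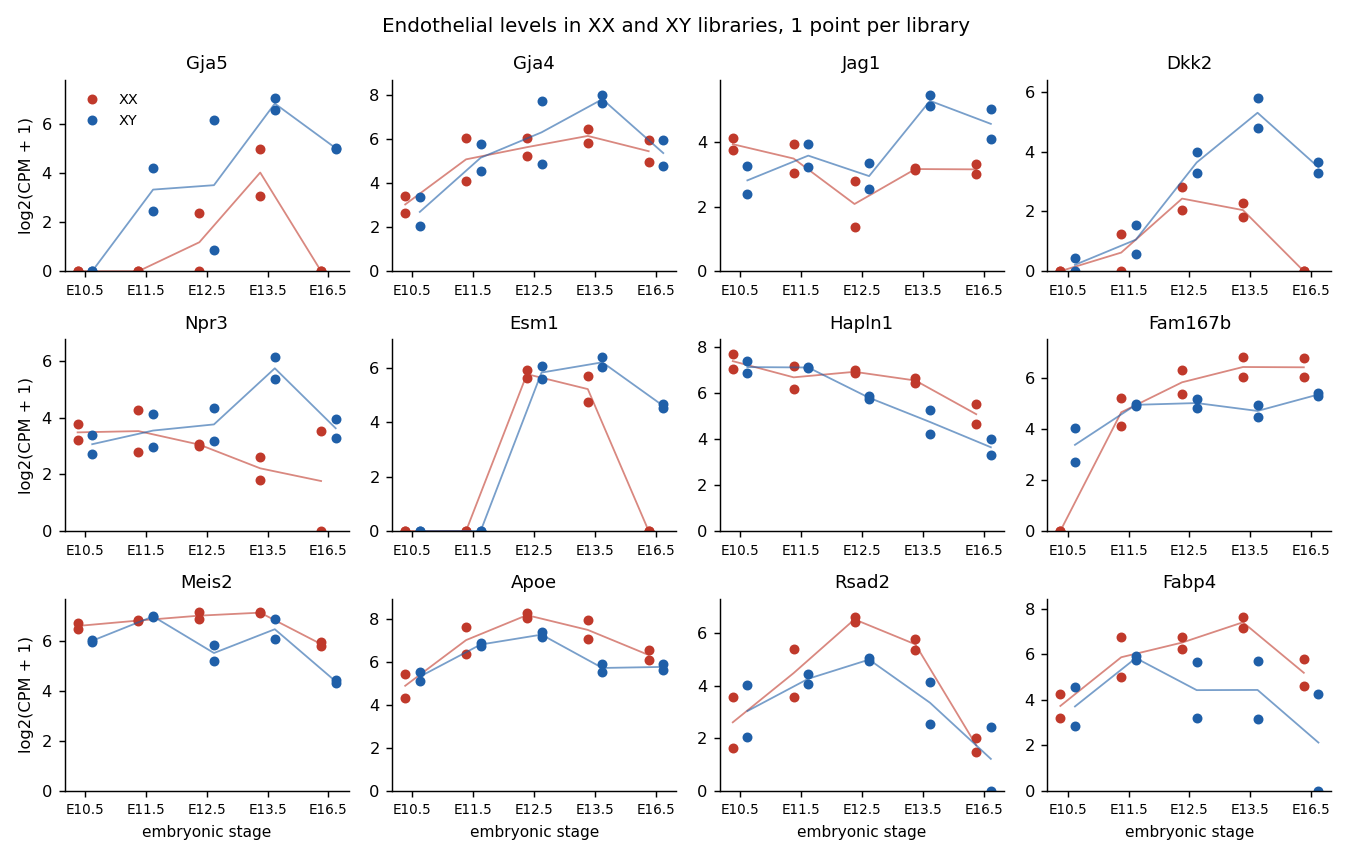
Levels of 12 genes in endothelial cells as log2(CPM + 1) by embryonic stage, with 1 point per library (XX red, XY blue) and lines through the means of each sex. Gja5, Jag1, Dkk2 and Npr3 lie higher in XY at E13.5 and Hapln1, Fam167b, Meis2 and Apoe higher in XX from E12.5 on.

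Dkk2, a secreted antagonist of Wnt (chr3:132085292-132180304), was higher in XY with libraries apart at all 3 stages. It was at 6.0 and 3.1 CPM in XX and 8.8 and 14.8 in XY at E12.5, at 3.9 and 2.5 against 26.8 and 55.4 at E13.5 (3.64, SE 0.55, adjusted p = 0.0019), and at 0 and 0 against 8.9 and 11.7 at E16.5 (over the stages adjusted p = 0.0029). Npr3, the clearance receptor of natriuretic peptides, was at 7.5 and 7.1 against 8.0 and 19.5, then 5.2 and 2.5 against 40.2 and 69.7, and 10.6 and 0 against 8.9 and 14.6 CPM (1.90, SE 0.41, adjusted p = 0.0288). It separated the sexes at E12.5 and E13.5 and overlapped at E16.5. Its call over the stages was lost without any of 8 single libraries. Aoc3 (adjusted p = 0.0288) and Gm525 (adjusted p = 0.0209), which rise with age in both sexes, were also higher in XY, Aoc3 at 16.0 and 34.5 against 3.9 and 5.8 CPM at E13.5. Aoc3 lost this call without any of 7 single libraries and Gm525 without any of 5. Tpm3-rs7, a copy of Tpm3 and so uncertain, was higher by 2.03 (SE 0.32, adjusted p = 0.00269) and apart at all 3 stages as well, yet ranged from 11.8 to 456.3 CPM over the 20 libraries. Esm1 was called over the stages (adjusted p = 0.0124) with both XX libraries of E16.5 at 0 in 38 cells. Its sexes overlapped at E12.5, and at E13.5 it did not pass (0.95, SE 0.32, adjusted p = 0.108).

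Meis2, a homeobox transcription factor (chr2:115863064-116065839), was higher in XX at all 3 stages. It was at 115.6 and 142.4 CPM in XX against 35.4 and 56.6 in XY at E12.5, at 140.4 and 138.6 against 66.3 and 115.7 at E13.5, and at 61.6 and 54.0 against 20.7 and 19.0 at E16.5 (-1.20, SE 0.17, adjusted p = 0.000681). No library of XY reached one of XX of the same stage. At E10.5 it was at 105.0 and 87.9 in XX against 62.0 and 64.8 in XY, also without overlap but not called, while at E11.5 both XY libraries (124.6 and 126.6) lay above both XX libraries (111.1 and 112.6), also not called. Of the autosomal genes named by size it alone was still called without the libraries of E13.5. Among list members, Cxcl12, Amh, Ptgds and Irx3 were still called too.

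Hapln1, which links hyaluronan to proteoglycans (chr13:89539796-89611652), was at 124.2 and 114.1 against 51.5 and 56.6 CPM at E12.5, 97.7 and 85.5 against 17.3 and 37.4 at E13.5, and 44.0 and 24.0 against 14.8 and 8.7 at E16.5 (-1.49, SE 0.25, adjusted p = 0.00542). Fam167b was at 39.9 and 77.1 against 35.4 and 27.4, at 64.7 and 110.4 against 29.7 and 20.9, and at 65.1 and 108.0 against 38.4 and 40.8 CPM (-1.26, SE 0.25, adjusted p = 0.0144), with at most 0.4 CPM in other cells. The lipid carrier Apoe was at 270.3 and 317.8 against 168.1 and 143.6, at 247.2 and 132.8 against 45.1 and 60.3, and at 68.6 and 93.0 against 48.8 and 59.8 CPM (-1.11, SE 0.22, adjusted p = 0.0144). For each of the 3 genes the sexes did not overlap at any of these stages. With so few libraries on each side, separation at a single stage is common by chance. Its share over all genes was not counted. Each call was lost without some single library: Hapln1 without E16.5 XX replicate 1, Apoe without E13.5 XX replicate 1, and Fam167b without E12.5 XY replicate 2, E13.5 XX replicate 2 or E16.5 XX replicate 2.

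The other genes higher in XX by the rule were Neurl1b, a ubiquitin ligase of Notch ligands (-1.52, SE 0.34, adjusted p = 0.0298), Fam174b (-1.20, SE 0.27, adjusted p = 0.0325) and 2700046A07Rik (-1.03, SE 0.24, adjusted p = 0.0421), beside Xist. Neurl1b and Fam174b each lost the call without any of 7 single libraries and 2700046A07Rik without any of 9. Neurl1b was at 30.4 and 56.4 against 7.5 and 4.4 CPM at E13.5 and overlapped at E16.5. Of the capillary list 2 of 10 were higher in XX, Cd36 (-1.53, SE 0.27, adjusted p = 0.00773) and Gpihbp1 (-0.86, SE 0.19, adjusted p = 0.0288), and 1 in XY, the adhesion receptor Cd300lg (adjusted p = 0.0319), at 4.1 and 6.3 in XX against 1.6 and 3.8 CPM in XY at E12.5, at 0 and 0 against 14.1 and 3.2 at E13.5, and at 0 and 0 against 11.8 and 48.1 at E16.5. It was thus higher in XX at E12.5, and its call was lost without any of 8 single libraries. Cd36 was at 13.2 and 7.1 against 5.6 and 4.6, at 13.6 and 15.8 against 2.9 and 4.9, and at 14.1 and 24.0 against 5.9 and 5.8 CPM. Its XX libraries lay above the XY libraries of the same stage at all 3 stages. The call of Gpihbp1 was lost without any of 7 single libraries.

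In single cells, Gja5 in the testis was found mostly in other cells than the apelin receptor Aplnr, a gene of veins and capillaries. In XY at E13.5, 72 of 137 cells with a Gja4 UMI also had a Gja5 UMI (52.6%), against 2 of 166 without one (1.20%). An Aplnr UMI was found in 4 of 74 cells with Gja5 (5.41%) and in 198 of 229 without (86.5%), at median depths of 20593.5 and 18460 UMIs. In XY at E12.5 these were 5 of 70 (7.14%) and 289 of 349 (82.8%). Cells with Gja5 were thus not deeper by much, and mostly without Aplnr at both stages. By the levels given above, the XY cells with Gja5 at E12.5 came almost wholly from replicate 2, and so describe a single library.

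At 5000 UMIs per cell, Gja5 was found in 1.02% of XX and 10.9% of XY endothelial cells at E12.5, in 5.40% and 19.5% at E13.5, and in 4.02% of XY cells at E16.5. Unthinned, it was in 24.4% of XY endothelial cells of E13.5 at a median of 19263 UMIs and in 0.793% of the germ cells of the same libraries at 26936. Aplnr was found after thinning in 63.4% of XX and 45.4% of XY endothelial cells at E12.5, in 67.4% and 45.7% at E13.5 and in 61.4% and 68.1% at E16.5, against at most 0.443% of germ cells in these groups. The share of cells with Gja5 in XY thus stood beside a lower share with Aplnr at E12.5 and E13.5 and not at E16.5. These shares pool the 2 libraries of a group and were not tested. For Gja5 in XY at E12.5 the share comes almost wholly from replicate 2, which held 350 endothelial cells.

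The difference between XY and XX endothelium was also set against that between the XY and XX cells of all other types, with both sums of a library in 1 fit and the library as block. Fits with this block hold small standard errors. Their p-values do not stand for the spread between the 2 libraries of a group. The other cells pool all other types, whose shares the paper gives as unlike in testis and ovary at E16.5. The part of these shares in the differences was not tested. Of 21703 genes 1502 (6.92%) passed, 752 of them with the more positive difference in endothelium. The 21703 include 5835 genes for which the fit gave no standard error. Meis2 (-2.09, SE 0.17, adjusted p = 5.81e-33), Hapln1 (-2.04, SE 0.22, adjusted p = 6.63e-19), Fam167b (-2.03, SE 0.36, adjusted p = 1.75e-06), Apoe (-0.78, SE 0.14, adjusted p = 2.85e-06) and Dkk2 (4.62, SE 1.26, adjusted p = 0.00594) differed from the other cells in the same sense as above. Jag1 (-0.74, SE 0.34, adjusted p = 0.213), Cxcl12 (-0.72, SE 0.29, adjusted p = 0.156) and Npr3 (0.07, SE 0.40, adjusted p = 1) did not pass, so that their sex difference was not shown to be unlike that of other cells. For Gja5, Esm1 and Gm525, at or near 0 in other cells, the comparison could not be fitted. Endothelial markers, whose level in the other cells depends on which cells were given the label, are not given from this comparison.

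From E12.5 to E16.5 the same comparison gave 1059 genes (4.88%) of 21703, which include 4620 for which the fit gave no standard error. Among the named genes, Igfbp7 (3.69, SE 0.19, adjusted p = 7.24e-83), Rgcc (2.09, SE 0.16, adjusted p = 2.5e-34) and Ly6e (2.11, SE 0.20, adjusted p = 3.78e-22) rose more in endothelium than in the other cells. B2m (0.17, SE 0.14, adjusted p = 0.75) and Igf2bp1 (-0.12, SE 0.23, adjusted p = 1) were not shown to change otherwise than elsewhere in the gonad, and Hmga2 fell less in endothelium (1.11, SE 0.18, adjusted p = 1.44e-07). Of 14 S-phase genes 9 had the more positive change in endothelium and none the more negative (median 0.79, all genes -0.24). Fits with the library as block hold small standard errors, for Igfbp7 0.19 against 0.74 in endothelium alone, and their p-values carry the limit given above. Without the block 254 genes passed here and 535 between the sexes.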

How the data were processed

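UMI counts of 26397 genes in single cells were deposited by the authors, whose alignment used Cell Ranger 2.1 and GRCm38 extended by GFP, and who chose cells by UMIs per barcode, removed none for quality or doublet score, clustered and annotated them, and scored the phase of each cell. Whether strand was used in counting is not given in the sources used here. The doublet score used here was computed anew. Endothelial counts were summed per library (at least 5 cells) and tested by the quasi-likelihood F test of edgeR 4.0.16 after filterByExpr and TMM scaling, two-sided and with Benjamini-Hochberg adjusted p, under R 4.3.3 and limma 3.58.1, in 1 fit with 1 mean per sex and stage, so that all groups share the estimate of the spread. Stage differences average both sexes, and XX and XY libraries of the same date entered them as separate libraries without a block. A gene passed at an adjusted p below 0.05 and an absolute log2 fold change of at least 0.361. Every comparison was also run with DESeq2 1.42.0. Shares of cells were compared by exact permutation, and intervals would cover counting error only. Scripts used python 3.11.15, scanpy 1.11.5, scipy 1.17.1, pandas 2.3.3, numpy 2.4.6 and matplotlib 3.10.9, and the tests were tested on simulated data. Positions are those of GENCODE M21 for genes with a matching symbol.

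Named genes are members of fixed lists and, for E11.5 against E10.5, E16.5 against E12.5 and XY against XX, the 8 largest rises and 8 largest falls among genes that passed, reached 20 CPM in the higher group and were at least as high in endothelium as in other cells. Their groups of libraries also had to be apart in at least 1 sex or stage. Separation of the libraries of genes named by size was thus in part set by the rule, and its share over all genes was not counted. The members, lists and rules were chosen with earlier results of these data known. The shared date of XX and XY libraries comes from the labels. Deviations of paired libraries from their group means correlated at 0.170 (E10.5), 0.146 (E11.5), -0.210 (E12.5) and 0.224 (E16.5). Of the genes called at E16.5 between the sexes, 1 is not reported here.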

Additional observations from a re-analysis of the deposited data

Results flagged for a closer look

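The sex difference in endothelium was tested against that in the other cells of the same libraries, and 1502 of 21703 genes differed with the library as block and 535 without it. With the block, 5835 of the 21703 gave no standard error. The values that follow are log2 differences of XY against XX in endothelium minus those in the other cells. They were 4.62 for Dkk2, -4.39 for Xist, -1.07 for Neurl1b, -2.04 for Hapln1, -2.03 for Fam167b, -1.90 for Fam174b, -2.09 for Meis2 and -0.78 for Apoe.

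The change from E12.5 to E16.5 was tested in the same way, and 1059 genes differed with the block and 254 without it. With the block, 4620 genes gave no standard error. The log2 change in endothelium minus that in the other cells was 3.69 for Igfbp7, 2.49 for Mndal, 1.85 for Abcb1a, 1.88 for Htra1 and 2.78 for Olfml2a. It was -7.09 for Gm28578, -6.90 for Gm38299 and -5.06 for Rsad2. Endothelial means of these genes at E16.5 were 1.83, 4.06 and 2.28 CPM, near the floor, so the size of these values is uncertain. In endothelium alone the call of Gm28578 was lost without any of 6 single libraries.

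Transcripts of the GFP transgene, which were tested with all other genes but not followed further, were present in endothelial cells of every library, from 15.7 to 1858 CPM. No library without the transgene was analysed here.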

How the results depend on the processing

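Numbers of genes that passed, by alternative. Without a filter on low counts there were 927 from E12.5 to E13.5, 1305 from E13.5 to E16.5, and between the sexes 463 over the stages, 26 for E10.5, 25 for E11.5, 158 for E12.5, 968 for E13.5, 91 for E16.5 and 111 in the change from E12.5 to E16.5. Fitted on the stages compared only, there were 337 from E13.5 to E16.5, 651 from E12.5 to E16.5, and between the sexes 87 over the stages, 6 at E12.5 and 1 at E16.5. With at least 20 cells per library there were 98 over the stages and 5 at E16.5, and without the highest 5% of doublet scores, which takes all 18 cells of E16.5 XX replicate 2, 73 and 3. DESeq2 gave 17 at E16.5 and 1 in the change. The following were chosen after seeing the data, as was the doublet score. Without both E12.5 libraries of the earlier date there were 2 from E12.5 to E13.5, 713 from E12.5 to E16.5, 97 over the stages, 5 at E12.5 and 1 in the change. Without the libraries with over 1% globin UMIs there were 23, and between the sexes 59 over the stages, 4 at E12.5 and 81 at E13.5. Without replicate 1 of both sexes at E16.5 there were 345 from E13.5 and 468 from E12.5. Without E13.5 there were 17 over the stages. The cause of these moves was not tested.

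With the shared date as a replicate block, 6 passed over the stages and 1 at E16.5, 11 at E12.5, and 3 each at E10.5 and E11.5. With the E12.5 pairs crossed, 24 passed at E12.5 and 18 over the stages. Without the library block, 535 and 254 passed in the comparisons with other cells, by sex and from E12.5 to E16.5.

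Leaving out 1 library gave 205 to 471 from E10.5 to E11.5, 33 to 451 from E12.5 to E13.5, 277 to 731 from E13.5 to E16.5 and 569 to 1262 from E12.5 to E16.5. Between the sexes it gave 82 to 153 over the stages, 3 to 4 at E10.5 and at E11.5, 4 to 27 at E12.5, 79 to 359 at E13.5 and 1 to 6 at E16.5, and 0 in the change. In the comparisons with other cells it gave 1100 to 1532 and 744 to 1152. The share of endothelial cells then differed by 0.432 to 1.21 points between the sexes from E12.5 on, 0.280 to 0.597 before, and -2.31 to -1.29 from E12.5 to E16.5, and the cycling share by -12.4 to -6.71 with time and 2.44 to 7.26 by sex. The sex difference in share was 0.830 points without erythrocytes and germ cells (exact permutation p = 0.148), and that in cycling 9.92 after thinning (exact permutation p = 0.0278) and 9.18 without the highest doublet scores (exact permutation p = 0.037). Klf2 from E13.5 to E16.5 went to -0.47 without replicate 1. No alternative on a doublet score of the authors was run. The groups hold 2 libraries each, and E16.5 rests on 20 and 18 XX cells, where a count of 0 allows up to 5.06 and 8.94 CPM before scaling.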

Other observations

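The lymphatic genes Ccl21a and Lyve1 were found in 1 of 4 libraries of E16.5, while Prox1 was at 1.8 to 8.7 CPM in all 4. XY replicate 1 held the lymphatic chemokine Ccl21a at 334.0 CPM and Lyve1 at 22.2 CPM, while the other 3 libraries of E16.5 held neither, and no library of E12.5 or E13.5 held more than 1.6 CPM of Ccl21a. All of it came from 1 cell of 77 XY cells, of 21986 UMIs, which held both genes and Prox1. The genes were chosen after their values were seen.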
